A study of Rattus norvegicus with 6 samples.

Results

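The Wnt ligands, receptors and antagonists are the genes that send, receive and block Wnt signals between cells. They were taken from the deposited table by gene name: the Wnt, Fzd, Sfrp and Dkk genes, Lrp5 and Lrp6, the Axin genes, Lef1 and the Tcf7 genes. The name matched 44 rows. Fzd10 is annotated there as a pseudogene and was left out, so 43 protein-coding genes of the 32623 in the table remained. They are 19 Wnt ligands, 9 frizzled receptors, 2 Lrp co-receptors, 4 Sfrp and 4 Dkk secreted antagonists, the scaffold Axin2, and 4 transcription factors of the TCF/LEF family. Axin1 was not analysed here. FPKM expresses a gene's fragments per length of its transcript and per size of the library. A mean of at least 1 FPKM over all libraries was required for a test, and 21 of the 43 genes reached it, as did 13105 genes of the whole table. The member just above this minimum was Wnt2, with a mean of 1.07 FPKM, and the one just below was Tcf7, with 0.874 FPKM.

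The cells were primary cardiomyocytes from the ventricles of Sprague-Dawley pups at postnatal day 1 to 3, all from 1 isolate that pooled several animals. In one group the small interfering RNA was a negative control (siNC), in the other it targeted Mettl3 (siMettl3), which encodes the catalytic subunit of the enzyme that writes N6-methyladenosine on messenger RNA. The RNAs acted for 24 h, and both groups were then given lipopolysaccharide (LPS), the bacterial endotoxin, for 6 h. Each group has 3 libraries. Cells without LPS were not analysed here. A changed response to LPS and a difference present without LPS therefore cannot be told apart below. The p-values measure the spread between samples of a single isolate, which may be technical.

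Wnt proteins are lipid-modified glycoproteins that bind a frizzled receptor at the cell surface. With the co-receptors Lrp5 or Lrp6 they halt the destruction of beta-catenin, which then enters the nucleus and activates target genes with TCF/LEF factors. This is the canonical branch. Other ligands, Wnt5a and Wnt11 among them, mostly act without beta-catenin, through calcium and planar polarity signals. Sfrp proteins bind Wnts outside the cell, and classical Dkk proteins bind the Lrp co-receptors. In the heart, Wnt signals are known for their stage-dependent part in cardiac development and for their return after injury.

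The knockdown is partial. Mettl3 measured 18.2, 17.2 and 15.3 FPKM in the siNC libraries and 10.3, 10.6 and 9.90 FPKM in the siMettl3 libraries, 60.6% of the control on average. The libraries held 71202469 to 76668751 deposited counts. Low counts in the table did not fall evenly. In each library the most common count above 0 was 4, with 464 to 515 genes against 193 to 242 at a count of 3 and 113 to 144 at 5, and the peaks recurred at a spacing of 3.65 to 3.73 counts. The counts may therefore have been computed from coverage, with 1 fragment standing as about 4 counts. On that reading a count of 0 allows 3 fragments, or 12 deposited counts, for counting error only. Cardiomyocyte markers were abundant (summed over 9 found of 10 listed, 13041 to 16172 FPKM per library), and 0 of 9 passed the limma test. edgeR called 1 of 9, the sarcomeric actin Actc1, which averaged 6104 FPKM in siNC and 4461 FPKM in siMettl3 and was lower in every siMettl3 library (-0.53, edgeR adjusted p = 0.0291, limma adjusted p = 0.0845); it was named after its values were seen.

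Wnt5a was the single member that passed the test. It was higher in siMettl3 cells, and it was also the most abundant Wnt ligand in every library. Among the other 20 tested members 0 passed, so 1 of 21 was called, against 10.9% of all genes tested (6.53% called higher and 4.4% lower). The frizzled receptor Fzd5 had the largest difference in the other direction. It missed the threshold in the FPKM data as deposited and passed it after rescaling or with counts. At an unadjusted p under 0.05, 8 of 21 members passed, against 31.4% of all genes tested. The libraries of the 2 groups did not overlap for 10 members, 9 higher and 1 lower in siMettl3, against 37.9% of all genes tested (26.4% higher and 11.5% lower).

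The overall scale matters for members with small differences. As deposited, the median log2 fold change was 0.14 over the 21 members and 0.067 over all genes tested. After scaling by median ratios these medians were 0.070 and 0.0058. Of the 21 members, 14 had a fold change above 0 and 7 below, both as deposited and after that scaling. Among all genes tested, the same scaling turned 856 higher and 576 lower calls into 358 higher (2.73%) and 781 lower (5.96%), with 1 member in each direction, Wnt5a and Fzd5. edgeR on the counts also called these 2 members, against 3.4% of genes higher and 6.59% lower, and DESeq2 called Wnt5a higher and Fzd5 and Fzd4 lower, against 7.71% and 10.6%.

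**Figure D1:**
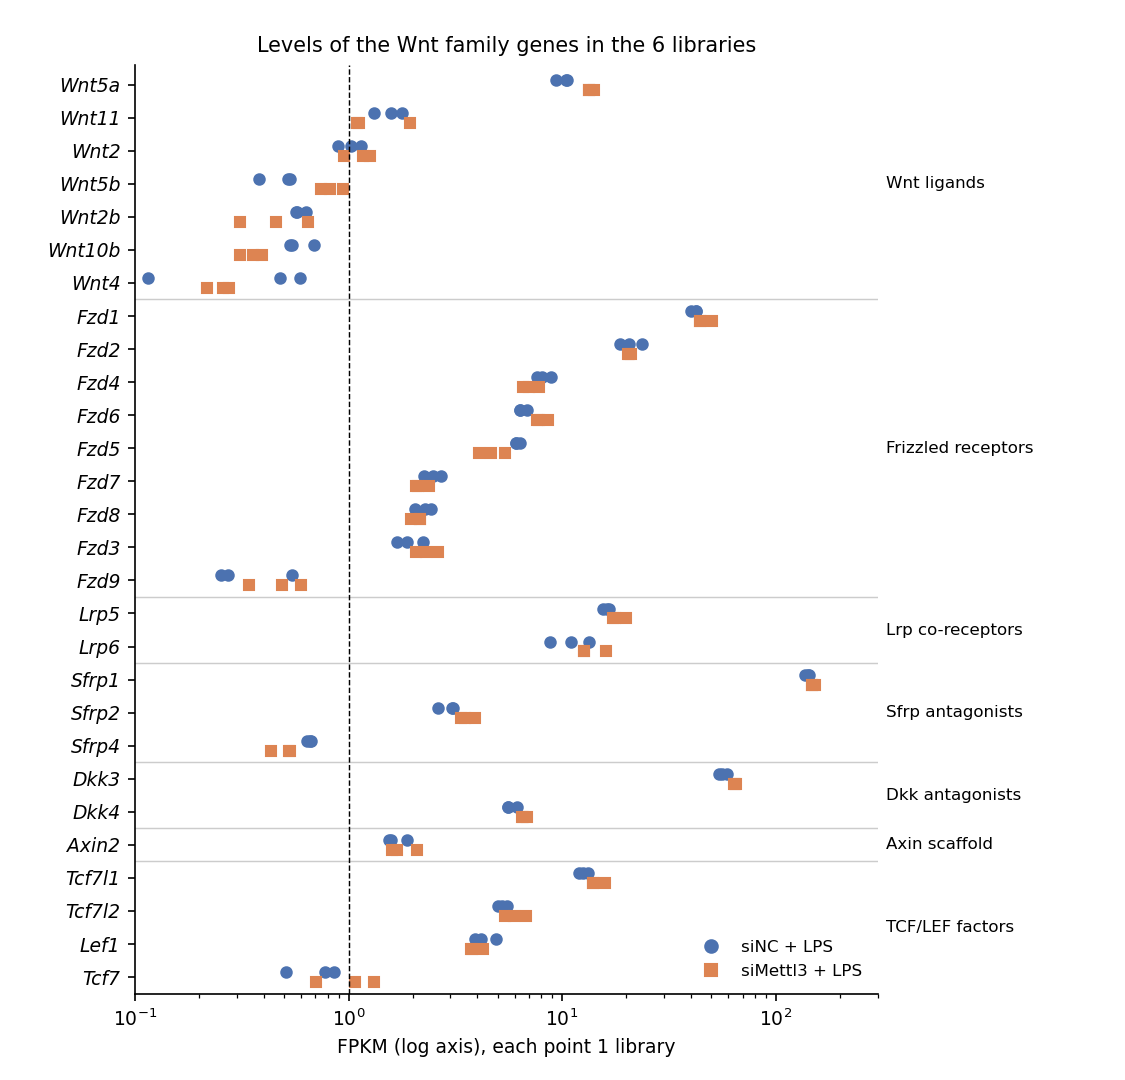
FPKM on a log axis for the 28 genes that averaged 0.3 FPKM or more, by role, each point 1 library (circles siNC, squares siMettl3); the dashed line marks 1 FPKM. Sfrp1, Dkk3 and Fzd1 are the highest, Wnt5a stands well above the other ligands, and the 2 groups lie close together for most genes.

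Of the ligands, 3 of 19 were tested. Wnt5a, which signals mainly without beta-catenin, measured 10.5, 9.41 and 10.4 FPKM in the siNC libraries and 13.4, 14.1 and 13.3 FPKM in the siMettl3 libraries. Every siMettl3 library lay above every siNC library. The means were 10.1 ± 0.612 and 13.6 ± 0.406 FPKM (SD, n = 3), a log2 fold change of 0.39 (95% interval 0.24 to 0.54, SE 0.0633, limma adjusted p = 0.0175). This was rank 344 by p among the 13105 genes tested. By edgeR the log2 fold change was 0.35 (adjusted p = 0.0166), and after median-ratio scaling 0.33 (limma adjusted p = 0.0245). Leaving out siNC replicate 1, siMettl3 replicate 1 or siMettl3 replicate 2 ended the limma call, with adjusted p of 0.0620, 0.0690 and 0.0526 at log2 fold changes of 0.42, 0.40 and 0.37. In bulk RNA fewer cells of a type and less RNA per cell cannot be told apart. The summed markers of fibroblasts, of macrophages, and of smooth muscle and pericytes were lower in the siMettl3 libraries. They are given at the end, and not every marker of these lists fell. In the table Wnt5a (ENSRNOG00000015618) lies on the plus strand of chromosome 16 from 4469468 to 4489860, in coordinates whose build is not given in the sources used here.

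The promoters of 3 members are shown because the results turn on them: Wnt5a was higher, Fzd5 had the largest lower value, and Axin2 is the textbook target of the canonical branch. Each line holds the 250 bases before the RefSeq start site in build GRCr8 (Wnt5a on the plus strand at chr16:3703415-3703664, Fzd5 on the minus strand at chr9:73614040-73614289, Axin2 on the plus strand at chr10:94398535-94398784), 5′ to 3′. Capitals mark matches, on either strand, to the GC box GGGCGG or to the TCF/LEF core CTTTGA.
Wnt5a: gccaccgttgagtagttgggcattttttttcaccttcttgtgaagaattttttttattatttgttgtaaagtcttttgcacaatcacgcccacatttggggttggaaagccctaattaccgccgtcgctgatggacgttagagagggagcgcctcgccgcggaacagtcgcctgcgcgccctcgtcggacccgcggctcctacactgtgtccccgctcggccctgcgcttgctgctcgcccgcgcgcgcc
Fzd5: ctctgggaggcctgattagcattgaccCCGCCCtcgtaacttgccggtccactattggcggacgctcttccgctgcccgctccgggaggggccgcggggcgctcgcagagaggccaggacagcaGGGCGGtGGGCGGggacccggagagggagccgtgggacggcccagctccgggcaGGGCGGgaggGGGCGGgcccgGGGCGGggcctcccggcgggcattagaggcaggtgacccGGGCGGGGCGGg
Axin2: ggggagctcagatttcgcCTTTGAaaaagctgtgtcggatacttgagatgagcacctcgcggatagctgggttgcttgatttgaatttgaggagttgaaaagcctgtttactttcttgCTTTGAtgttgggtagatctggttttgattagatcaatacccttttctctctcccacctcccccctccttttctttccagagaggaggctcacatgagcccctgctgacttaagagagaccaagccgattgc

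Fzd5 held 8 GC boxes, of which the 2 nearest the start share 1 base, and Wnt5a and Axin2 held 0. Axin2 held 2 TCF/LEF cores, which begin 232 and 132 bases before the start, and Wnt5a and Fzd5 held 0. The promoter table matched 30 of the 43 members. A TCF/LEF core occurred in 4 of these 30 (13.3%: Axin2, Dkk1, Fzd7 and Wnt8a) and in 13.8% of the 27457 promoters in the table. A GC box occurred in 17 of 30 (56.7%) and in 32.4% of all, a TATA box (TATAAA) in 1 of 30 and in 13.1% of all, and a CCAAT box (CCAAT) in 9 of 30 (30.0%) and in 34.3% of all. The members' promoters were richer in G and C, with a median of 65.2% against 52.0%. The members are all protein-coding, whereas the 27457 promoters were not filtered by gene type, so the 2 sets may be unlike. A match is a run of letters and not a measured binding site.

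The other tested ligands were low. Wnt11, a ligand that also acts mostly without beta-catenin and is known from early heart development, measured 1.58, 1.78 and 1.31 FPKM in siNC and 1.10, 1.12 and 1.94 FPKM in siMettl3. The siMettl3 replicate 3 library was the highest of all 6 and the other siMettl3 libraries were the lowest, so the groups overlapped (log2 fold change -0.12, 95% interval -0.49 to 0.26, limma adjusted p = 0.644). Wnt2, a canonical ligand, measured 1.03, 0.888 and 1.14 FPKM in siNC and 0.952, 1.16 and 1.27 FPKM in siMettl3, again with overlap (0.075, 95% interval -0.18 to 0.33, limma adjusted p = 0.663).

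The remaining 16 ligands had a mean below 1 FPKM and were outside the main comparison. Their tests here come from edgeR with its own filter on low counts, an alternative chosen after seeing the data, in which 7.28% of 16544 genes were called (2.39% higher and 4.9% lower). Wnt5b, the close relative of Wnt5a, measured 0.380, 0.530 and 0.522 FPKM in siNC and 0.744, 0.821 and 0.938 FPKM in siMettl3. The groups did not overlap, in the same direction as Wnt5a, but the difference did not pass (edgeR log2 fold change 0.72, adjusted p = 0.0821). Wnt10b, a canonical ligand, measured 0.541, 0.533 and 0.687 FPKM in siNC and 0.393, 0.356 and 0.311 FPKM in siMettl3. It was lower in every siMettl3 library and did not pass either (edgeR -0.81, adjusted p = 0.0762).

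Wnt2b measured 0.567, 0.575 and 0.630 FPKM in siNC and 0.458, 0.649 and 0.311 FPKM in siMettl3. It overlaps the opposite-strand gene St7l, which averaged 4.06 FPKM, and the sources used here do not say whether counting used strand, so reads of the 2 genes may be mixed. Wnt4 measured 0.479, 0.115 and 0.592 FPKM in siNC and 0.218, 0.257 and 0.276 FPKM in siMettl3, with siNC replicate 2 the lowest of all 6 libraries. Both overlapped between groups (edgeR adjusted p = 0.468 for Wnt2b and 0.430 for Wnt4).

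Wnt9a had 0 counts in all 3 siNC libraries and 12, 11 and 23 counts in the siMettl3 libraries. Among the 8167 genes below 1 FPKM that had any count, 4 (0.049%) had 0 in every siNC library and at least 10 in every siMettl3 library. Wnt9a is 1 of these 4, the limit of 10 lies just under its own lowest siMettl3 count, and the opposite pattern was not counted. That share is therefore no measure of how unusual Wnt9a is. edgeR called Wnt9a higher (adjusted p = 0.0494), and limma on FPKM without the filter did not (adjusted p = 0.0526). Of its siMettl3 counts 2 of 3 lie within the 12 counts that a 0 allows, so no fold is given. The other 11 ligands averaged at most 0.143 FPKM, and Wnt1, Wnt3a and Wnt8a had 0 counts in all 6 libraries.

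The ligands below 1 FPKM include the family's gene clusters. In the table's coordinates Wnt1 and Wnt10b lie 10730 bases apart on chromosome 7, Wnt3a and Wnt9a 21107 bases apart on chromosome 10, Wnt3 and Wnt9b 22716 bases apart on chromosome 10, and Wnt6 and Wnt10a 6414 bases apart on chromosome 9. All 8 of these genes averaged below 1 FPKM. Summed over the 19 ligands, the libraries held 15.7, 14.2 and 15.6 FPKM in siNC and 17.9, 19.04 and 19.3 FPKM in siMettl3. Wnt5a made up 66.4% to 66.9% of that sum in siNC and 69.0% to 74.6% in siMettl3.

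**Figure D2:**
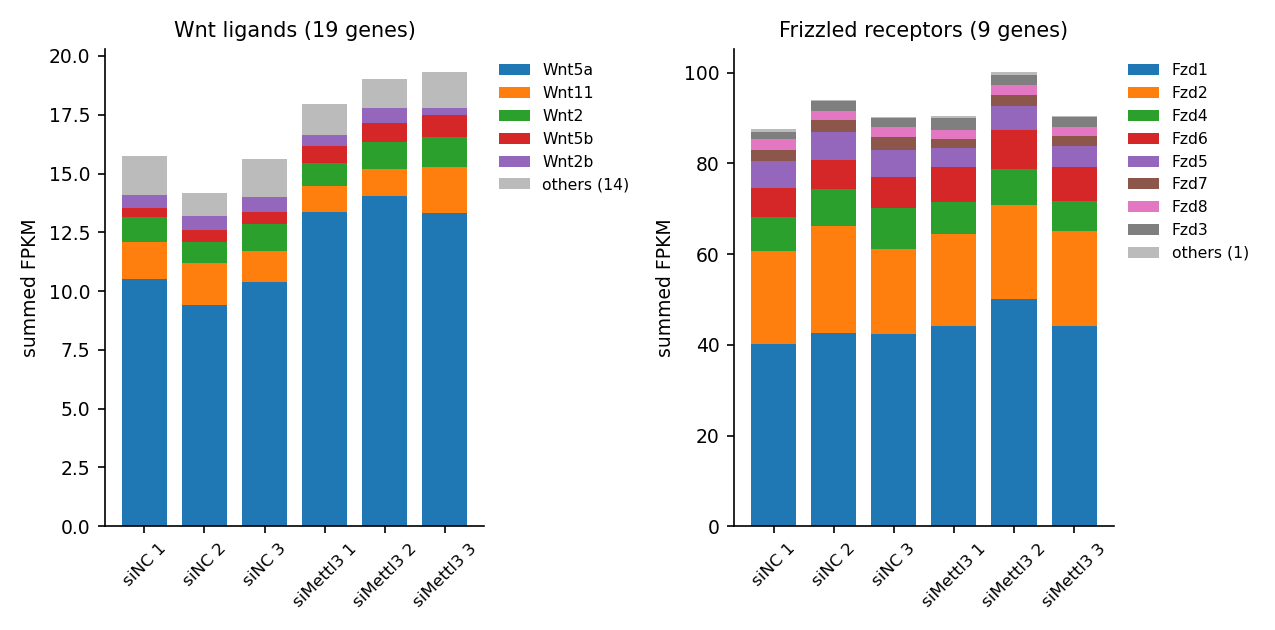
Summed FPKM of the 19 Wnt ligands (left) and the 9 frizzled receptors (right) in each library, stacked by gene, with bars starting at 0. Wnt5a is the main part of the ligand bars and Fzd1 of the receptor bars. The ligand bars reach 17.9 to 19.3 FPKM in siMettl3 against 14.2 to 15.7 in siNC, on average mostly through Wnt5a.

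Of the 9 frizzled receptors, the seven-pass membrane proteins that bind Wnts, 8 were tested and 0 passed; 3 had a fold change above 0 and 5 below. Fzd1 was the most abundant, with 45.3% to 50.1% of the receptors' summed FPKM. It measured 40.1, 42.6 and 42.5 FPKM in siNC and 44.2, 50.2 and 44.1 FPKM in siMettl3. The siMettl3 libraries were all higher, with replicate 2 well above the others, but the difference did not pass (0.14, 95% interval -0.016 to 0.30, limma adjusted p = 0.195), and it was 0.070 after median-ratio scaling. Fzd2 came next, at 20.5, 23.7 and 18.7 FPKM in siNC and 20.3, 20.7 and 21.004 FPKM in siMettl3, where the siMettl3 values lay inside the siNC range (-0.014, 95% interval -0.22 to 0.19, limma adjusted p = 0.929).

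Fzd5 measured 6.06, 6.36 and 6.12 FPKM in siNC and 4.10, 5.39 and 4.64 FPKM in siMettl3. All siMettl3 libraries lay below all siNC libraries, and the spread was wider among them (4.71 ± 0.650 against 6.18 ± 0.161 FPKM, SD, n = 3). This is a log2 fold change of -0.34 (95% interval -0.56 to -0.11, SE 0.0941, limma adjusted p = 0.0646). It was -0.47 by edgeR (adjusted p = 0.0462), where 9.99% of genes were called, and -0.40 after median-ratio scaling (limma adjusted p = 0.0459), where 8.69% were. Leaving out 1 library gave limma adjusted p of 0.0526 to 0.161. In the table Fzd5 (ENSRNOG00000014678) spans 71443588 to 71445739 of chromosome 9, minus strand.

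Fzd4, the receptor for norrin as well as for Wnts and a gene of vessel growth, measured 7.59, 8.07 and 8.91 FPKM in siNC and 6.99, 7.83 and 6.53 FPKM in siMettl3. The groups overlapped through siMettl3 replicate 2 (-0.18, 95% interval -0.39 to 0.028, limma adjusted p = 0.209). DESeq2 called it lower (-0.27, adjusted p = 0.0468), where 18.3% of genes were called, and edgeR did not (-0.28, adjusted p = 0.0995). Fzd6, a receptor of the planar polarity branch, measured 6.37, 6.36 and 6.86 FPKM in siNC and 7.79, 8.62 and 7.59 FPKM in siMettl3. It was higher in every siMettl3 library and missed the threshold (0.26, SE 0.0708, limma adjusted p = 0.0624, edgeR adjusted p = 0.111).

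The 3 lowest tested receptors all overlapped between groups. Fzd7 measured 2.26, 2.48 and 2.72 FPKM in siNC and 2.08, 2.39 and 2.11 FPKM in siMettl3 (limma adjusted p = 0.376). Fzd8 measured 2.44, 2.04 and 2.29 FPKM in siNC and 1.95, 2.16 and 2.15 FPKM in siMettl3 (limma adjusted p = 0.586). Fzd3, which works in planar polarity and axon guidance, measured 1.68, 2.22 and 1.88 FPKM in siNC and 2.61, 2.30 and 2.08 FPKM in siMettl3 (limma adjusted p = 0.274). Fzd9 was below the minimum and also overlapped, at 0.542, 0.253 and 0.272 FPKM in siNC and 0.489, 0.601 and 0.341 FPKM in siMettl3. In the order of levels, Fzd4 and Fzd6 stood the other way round in the 2 groups: the means were 8.19 ± 0.667 and 6.53 ± 0.287 FPKM in siNC and 7.12 ± 0.659 and 8.003 ± 0.544 FPKM in siMettl3, with siNC ranges that do not overlap and siMettl3 ranges that do. Compared within each library, Fzd4 was above Fzd6 in every siNC library and below it in every siMettl3 library.

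The co-receptors Lrp5 and Lrp6, single-pass proteins related to the LDL receptor, were both tested and did not pass. Lrp5 measured 16.6, 15.6 and 16.3 FPKM in siNC and 17.3, 19.8 and 17.7 FPKM in siMettl3. The groups did not overlap, and the log2 fold change was 0.17 as deposited (limma adjusted p = 0.147) and 0.099 after median-ratio scaling. Lrp6 measured 10.99, 8.75 and 13.3 FPKM in siNC and 12.7, 16.1 and 12.7 FPKM in siMettl3. It varied widely within both groups, with siNC replicate 2 the lowest and siMettl3 replicate 2 the highest, so that the interval of its difference was wide (0.31, 95% interval -0.060 to 0.68, limma adjusted p = 0.221). This order is not particular to Lrp6: Apc, Ep300 and Celsr1 of the pathway lists below had the same lowest and highest libraries. These libraries also lay at the ends (-21.7 and 26.5) of the main axis of variation over all genes tested, with 41.4% of the variance. The part of this axis in the calls was not tested.

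**Figure D3:**
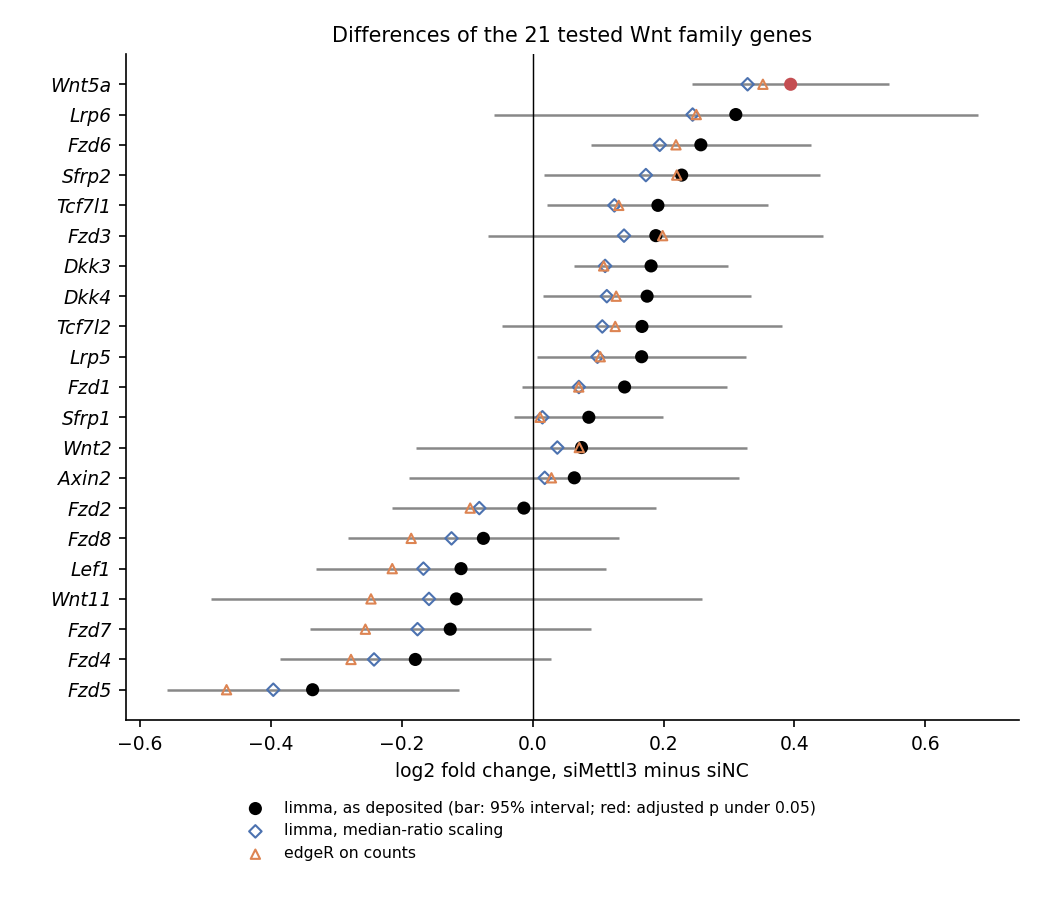
Log2 fold change (siMettl3 minus siNC) of the 21 tested genes, with limma's 95% interval as a bar, beside the values after median-ratio scaling (diamonds) and by edgeR (triangles). Only Wnt5a passes limma's adjusted threshold as deposited (red), and the rescaled and edgeR values lie to the left of the deposited ones for most genes.

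The secreted antagonists were the most abundant role. Their summed level, with Dkk3 included, was 205, 206 and 210 FPKM in siNC and 222, 229 and 223 FPKM in siMettl3. Relative to the summed ligand level of the same library, this is 13.04 to 14.6 times in siNC and 11.5 to 12.4 times in siMettl3. The ratio was thus lower in every siMettl3 library than in any siNC library. The 4 tested antagonists all had higher values in every siMettl3 library, as had 26.4% of all genes tested, and 0 of 4 passed. Their fold changes were above 0 as deposited, as were those of 63.7% of all genes tested, and stayed above 0 after median-ratio scaling (51.2% of all) and by edgeR. Sfrp1, a secreted protein with a frizzled-like Wnt-binding domain, measured 137, 142 and 143 FPKM in siNC and 148, 153 and 148 FPKM in siMettl3. It was rank 475 by level among all genes in the table, and its log2 fold change of 0.086 as deposited (95% interval -0.028 to 0.20, limma adjusted p = 0.264) was 0.015 after median-ratio scaling.

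Sfrp2 measured 2.61, 3.06 and 3.10 FPKM in siNC and 3.51, 3.37 and 3.90 FPKM in siMettl3 (0.23, limma adjusted p = 0.136). Sfrp1 thus stood for 97.1% to 97.6% of the Sfrp level in every library. Sfrp4, below the minimum, measured 0.642, 0.666 and 0.657 FPKM in siNC and 0.528, 0.529 and 0.434 FPKM in siMettl3. It was lower in every siMettl3 library, the opposite direction to Sfrp1 and Sfrp2, and did not pass (edgeR -0.48, adjusted p = 0.103). Sfrp5 averaged 0.0588 FPKM.

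Dkk3, a divergent family member that is not known to bind Lrp5 or Lrp6 as Dkk1 does, measured 59.1, 54.4 and 56.4 FPKM in siNC and 63.6, 65.0 and 64.3 FPKM in siMettl3. The siMettl3 values were tightly grouped above the siNC values (56.6 ± 2.36 against 64.3 ± 0.703 FPKM, SD, n = 3). As a log2 fold change this is 0.18 (SE 0.0496, limma adjusted p = 0.0617), or 0.11 after median-ratio scaling (limma adjusted p = 0.188). Dkk4, which does inhibit canonical signalling, measured 5.57, 5.60 and 6.16 FPKM in siNC and 6.55, 6.89 and 6.50 FPKM in siMettl3 (0.17, limma adjusted p = 0.131). Dkk2 averaged 0.118 FPKM. Dkk1, the best-known inhibitor of Lrp5 and Lrp6, had 0 counts in all 6 libraries.

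Inside the cell, neither the scaffold nor the nuclear factors passed. Axin2 builds the beta-catenin destruction complex and is induced by canonical Wnt signals as a negative feedback. It measured 1.54, 1.59 and 1.87 FPKM in siNC and 1.69, 1.596 and 2.09 FPKM in siMettl3, with overlap (0.064, 95% interval -0.19 to 0.32, limma adjusted p = 0.711). Lef1, a TCF/LEF factor that is itself a common target, measured 3.93, 4.19 and 4.91 FPKM in siNC and 3.76, 4.27 and 3.80 FPKM in siMettl3, also with overlap (-0.11, 95% interval -0.33 to 0.11, limma adjusted p = 0.456).

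Tcf7l1, which acts mainly as a repressor, was the most abundant TCF/LEF factor, at 52.3% to 57.8% of their summed level. It measured 12.5, 13.3 and 12.1 FPKM in siNC and 14.0, 15.8 and 13.9 FPKM in siMettl3, without overlap (0.19, limma adjusted p = 0.124). Tcf7l2 measured 5.55, 5.01 and 5.22 FPKM in siNC and 5.96, 6.80 and 5.40 FPKM in siMettl3 (0.17, limma adjusted p = 0.249). Tcf7, below the minimum on average, measured 0.777, 0.508 and 0.857 FPKM in siNC and 0.701, 1.08 and 1.32 FPKM in siMettl3. Both overlapped between groups.

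**Figure D4:**
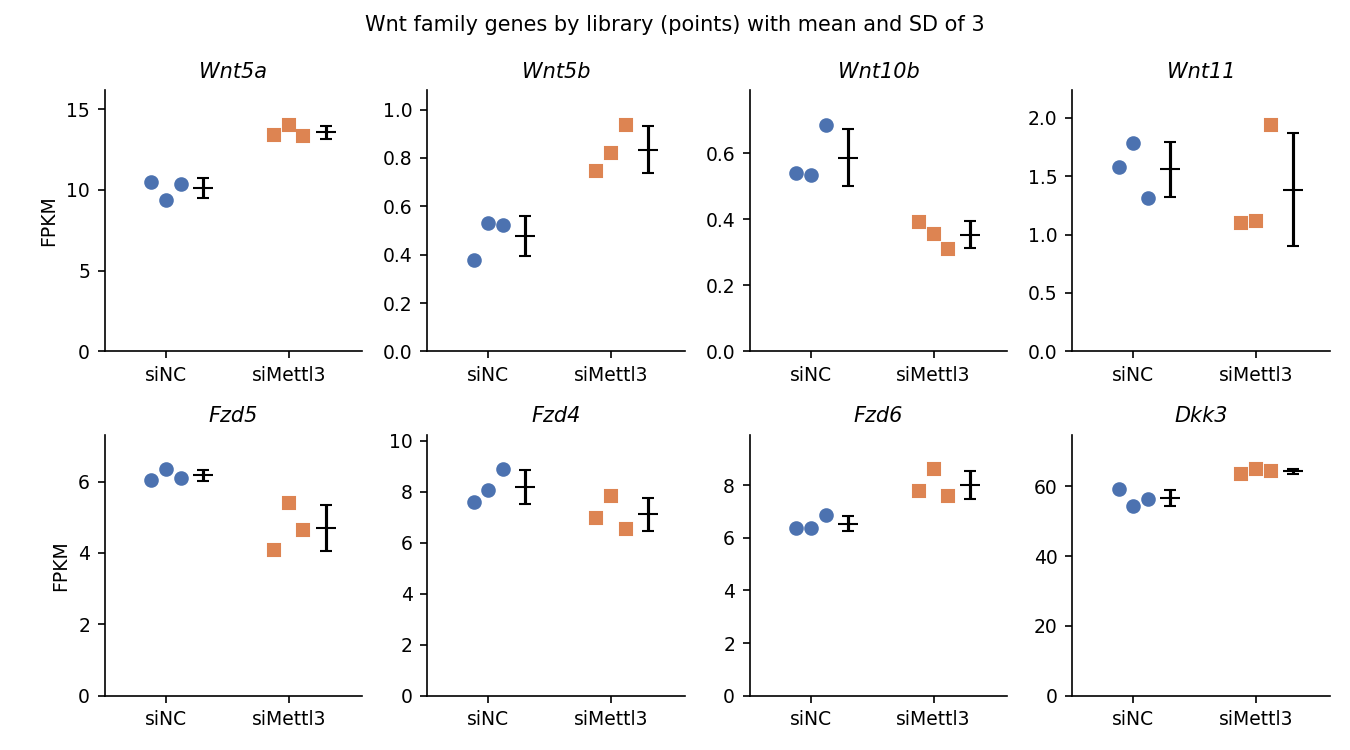
FPKM in each library (points) with the mean and SD of the 3 libraries of a group (bars beside the points) for 8 members, on axes that start at 0. The groups separate for Wnt5a, Wnt5b, Wnt10b, Fzd5, Fzd6 and Dkk3 and overlap for Wnt11 and Fzd4.

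The rest of the pathway was described with 5 lists of other genes, 112 symbols in all, of which 111 were found and 92 tested. Among the 92, 8 were higher and 9 lower by limma, against 6.53% and 4.4% of all genes tested; their median log2 fold change was 0.064, against 0.067. By edgeR 4 were higher and 12 lower, against 3.4% and 6.59% of all genes tested. The centres of the pathway, Ctnnb1 and Wls, did not pass and had fold changes whose sign turned with the scaling. Ctnnb1, which encodes beta-catenin, measured 161, 152 and 158 FPKM in siNC and 154, 169 and 163 FPKM in siMettl3 (0.044 as deposited, limma adjusted p = 0.615, and -0.027 after median-ratio scaling). Wls, the carrier that all Wnts need for secretion, measured 83.3, 81.8 and 83.1 FPKM in siNC and 84.0, 84.0 and 84.6 FPKM in siMettl3 (0.024, limma adjusted p = 0.723, and -0.046).

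Of 16 tested genes for secretion, extracellular modulators and other receptors, 2 rose and 3 fell by limma, and edgeR called 1 higher and 4 lower. The shares over all genes tested were 6.53% higher and 4.4% lower by limma, and 3.4% and 6.59% by edgeR. The sign of the list's median log2 fold change turned with the scaling, from 0.0083 to -0.053 with median ratios. Igfbp4, an insulin-like growth factor binding protein that also inhibits canonical Wnt signals in the heart, measured 28.4, 28.1 and 28.3 FPKM in siNC and 40.0, 41.7 and 42.8 FPKM in siMettl3 (0.54, limma adjusted p = 0.00417). The siNC values were nearly equal and all siMettl3 values lay well above them. Gpc3, a cell-surface heparan sulphate proteoglycan that binds Wnts, went from 15.1 ± 0.670 to 8.80 ± 0.897 FPKM (SD, n = 3; -0.72, limma adjusted p = 0.00695), and the related Gpc4 from 41.3 ± 2.23 to 33.0 ± 0.886 FPKM (-0.32, limma adjusted p = 0.0217). Tpbg, a membrane glycoprotein that inhibits canonical signalling, went from 21.8 ± 1.10 to 15.5 ± 1.17 FPKM (-0.47, limma adjusted p = 0.0145). Lgr4, a receptor for R-spondins, rose by limma (0.44, adjusted p = 0.0402) and did not pass by edgeR (adjusted p = 0.0588); it is the fifth of its list and was named after its value was seen.

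Of 24 tested genes of cytoplasmic transduction, 3 rose and 1 fell by limma (median 0.18, or 0.11 after median-ratio scaling), and edgeR called 1 in each direction. Among all genes tested, limma called 6.53% higher and 4.4% lower, and edgeR 3.4% and 6.59%. Nkd2, an inhibitor that binds Dishevelled, measured 6.09, 6.03 and 5.60 FPKM in siNC and 2.69, 2.42 and 2.81 FPKM in siMettl3. It had the largest change among the tested genes of the 5 lists, -0.93 by limma (SE 0.0767, adjusted p = 0.00392) and -1.24 by edgeR (adjusted p = 0.00146). Btrc, the F-box protein that marks beta-catenin for destruction, went from 10.2 ± 0.549 to 14.3 ± 0.872 FPKM (SD, n = 3; 0.44, limma adjusted p = 0.0157). The casein kinases Csnk1g3 (0.35, limma adjusted p = 0.0297) and Csnk1a1 (0.27, limma adjusted p = 0.0455) rose by limma and were not called by edgeR (adjusted p = 0.0640 and 0.0984).

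Of 16 nuclear cofactors 1 rose by limma, Pygo2 (0.27, adjusted p = 0.0391), and edgeR did not call it (adjusted p = 0.0831). Of 12 planar polarity genes 1 rose, the cadherin Celsr1, from 9.71 ± 1.61 to 16.0 ± 2.62 FPKM (SD, n = 3; 0.67, limma adjusted p = 0.0340). Of 24 textbook targets, which many other signals also regulate, 5 fell and 1 rose by limma (median -0.089, or -0.14 after median-ratio scaling), and edgeR called 7 lower and 1 higher. In either direction, limma called 6.25% of the nuclear cofactors, 8.33% of the planar polarity genes and 25% of the textbook targets. The share over all genes tested was 10.9% by limma (6.53% higher and 4.4% lower), and edgeR called 3.4% higher and 6.59% lower. Endothelin 1 (Edn1) went from 8.17 ± 0.242 to 5.38 ± 0.232 FPKM (-0.52, limma adjusted p = 0.00722), Snai2, a transcription factor of mesenchymal cells, from 5.02 ± 0.302 to 2.64 ± 0.406 FPKM (-0.73, limma adjusted p = 0.0122), and follistatin (Fst) from 21.3 ± 1.94 to 14.7 ± 0.895 FPKM (-0.50, limma adjusted p = 0.0173). Mmp14 (-0.27, limma adjusted p = 0.0362) and Bmp4 (-0.39, limma adjusted p = 0.0427) also fell and were named after their values were seen, and the nuclear receptor Ppard rose (0.35, limma adjusted p = 0.0219).

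Leaving out each library in turn, Edn1, Gpc3, Igfbp4 and Nkd2 passed limma's threshold in all 6 fits. Snai2 failed when siNC replicate 1 was left out (adjusted p = 0.0540). Btrc and Tpbg failed when that library (0.0564 and 0.0614) or siMettl3 replicate 1 (0.0555 and 0.0654) was. Lgr4, Csnk1g3 and Celsr1 passed only without siNC replicate 3 (0.0452, 0.0357 and 0.0376), Bmp4 only without siMettl3 replicate 3 (0.0353), Gpc4 only without siNC replicate 3 (0.0434) or siMettl3 replicate 2 (0.0490), and Ppard only without siNC replicate 3 (0.0438) or siMettl3 replicate 3 (0.0433). Fst failed when siNC replicate 1 (0.0771), siMettl3 replicate 1 (0.0716) or siMettl3 replicate 3 (0.0527) was left out, and passed in the other 3 fits. Csnk1a1, Mmp14 and Pygo2 passed in 0 of the 6 fits, with adjusted p of at least 0.0537, 0.0586 and 0.0711.

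**Figure D5:**
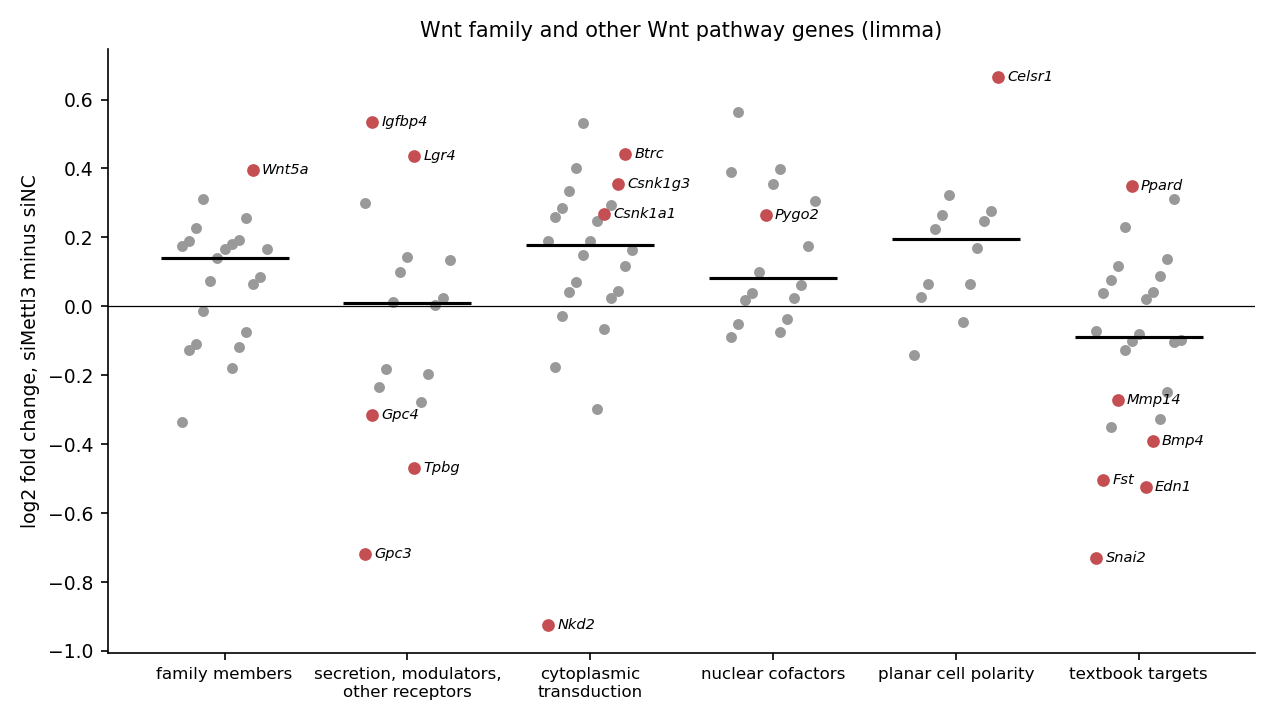
Log2 fold change (siMettl3 minus siNC, limma) of each tested gene of the Wnt family and of 5 lists of other pathway genes, with genes past the adjusted threshold in red and named and the median of each list as a line. Nkd2 has the lowest value and Celsr1 the highest, and Wnt5a is the single named gene of the family.

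The summed markers of several other cell types separated the groups, and those of endothelial cells and glia overlapped. Summed over the 11 fibroblast markers found of 12 listed, the level was 1495 to 1563 FPKM per library in siNC and 912 to 972 FPKM in siMettl3. Most of that sum was Col1a1, at 1183 to 1216 FPKM in siNC and 720 to 779 FPKM in siMettl3. By limma 7 of 11 fell, and Dpt overlapped between groups (0.092). Of all genes tested, limma called 4.4% lower and 6.53% higher, shares that also apply to the lists that follow. Over 10 macrophage markers the summed level was 78.2 to 96.0 and 40.9 to 52.9 FPKM. Of these, 6 of 7 tested were lower, and C1qc, Mrc1 and Ptprc were below 1 FPKM. Over 8 smooth muscle and pericyte markers it was 4557 to 5162 and 3362 to 3630 FPKM. Of these, 4 of 8 were lower: Acta2, Tagln, Myh11 and Cnn1. Acta2 and Tagln, at means of 1981 and 1058 FPKM, made up most of that sum. Cspg4 was higher in every siMettl3 library (0.26, limma adjusted p = 0.145), and Rgs5, Pdgfrb and Des overlapped. Over 8 epicardial and mesothelial markers the summed level was 29.4 to 30.0 and 31.6 to 37.1 FPKM. Of these, 1 of 6 tested was higher and 1 lower, and Wt1 and Upk3b were below 1 FPKM. Over 7 endothelial markers found of 8 listed it was 15.4 to 17.8 and 17.7 to 19.1 FPKM. Of these, 2 of 4 tested were higher and 1 lower, and Tie1, Emcn and Vwf were below 1 FPKM. Over 5 glial markers found of 6 listed it was 2.91 to 3.42 and 3.27 to 5.12 FPKM, with 0 of 1 tested called, and over 4 red cell markers found of 5 listed 90.0 to 131 and 145 to 213 FPKM, with 1 of 3 tested higher by limma and 0 by edgeR. edgeR called 8 of the fibroblast, 7 of the macrophage and 4 of the smooth muscle markers lower, against 6.59% of all genes tested. No marker was at 0 in all libraries. The part of these cell types in the values of Wnt5a, Fzd5 and the other Wnt genes was not tested.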

How the data were processed

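The FPKM values and the counts were deposited by the authors in 1 table, per the file headers, with 1 column per library in each unit. The submitters' processing notes list Bowtie 0.12.2 and mm8, a mouse build, and give neither a role; the quantifier, annotation release and build of the rat table are not given in the sources used here. FPKM carries 0.0001 exactly where the count is 0. Counts and FPKM of a gene carry the same information: over 14527 well-counted genes, the ratio of the 2, with each library scaled, stayed within 1% of the gene's median in 98.7% of values. FPKM was therefore kept as the main measure. Values were tested as log2(FPKM + 1), which understates changes of genes near 1 FPKM, over 13105 genes with limma 3.58.1 (intensity trend, 2-sided, Benjamini-Hochberg threshold 0.05) in R 4.3.3. edgeR 4.0.16 (quasi-likelihood) and DESeq2 1.42.0 were run on the counts as alternatives, beside other pseudocounts, filters, scalings, a replicate block and fits without 1 library. Both expect counts of fragments. If the deposited counts were computed from coverage, as their spacing allows, the p-values of both may be inexact, most of all for low genes. This was not tested. The limma fit was tested on simulated data for this comparison over 13105 genes: it called 74 of 100 genes changed by 1 on the log2 scale, 5 of 100 changed by 0.5 and 2 of 12905 unchanged genes. The total count was 71202469 to 76668751 per library. Of several rows with 1 symbol, that of highest mean FPKM was used. All 21 tested members are given per library, members of 0.3 to 1 FPKM likewise, and of each pathway list up to 4 genes past the threshold with the smallest adjusted p, with Ctnnb1, Wls and Mettl3 whatever their values. The members and lists were chosen with earlier results of these data known. Promoter sequences came from RefSeq tables of build GRCr8, matched by symbol.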

Additional observations from a re-analysis of the deposited data

How the results depend on the processing

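The call of Wnt5a and its direction held with a pseudocount of 0.1, with no filter or a minimum of 5 FPKM, with median-ratio, quantile and TMM scaling (the last chosen after seeing the data), by edgeR and by DESeq2. Members called higher numbered 1 in those fits and 0 to 1 when 1 library was left out. Members called lower, 0 as deposited, were 1 (Fzd5) with median-ratio, quantile or TMM scaling or by edgeR, 2 by DESeq2 (Fzd5 and Fzd4) and 0 in every fit without 1 library. Of the 92 other pathway genes, 8 were higher as deposited, 4 without the filter (of 111), with median-ratio or TMM scaling or by edgeR, 5 after quantile normalization, 13 by DESeq2 and 1 to 7 without 1 library. Those lower numbered 9 as deposited, 12 with median-ratio or TMM scaling or by edgeR, 11 after quantile normalization, 18 by DESeq2 and 3 to 7 without 1 library. Calls over all tested genes moved in the same directions: 856 higher and 576 lower calls as deposited became 358 and 781 with median-ratio scaling, 469 and 752 with quantile normalization, 350 and 799 with TMM scaling, 500 and 403 without the filter, and 83 to 471 and 123 to 390 without 1 library. Over all genes the lower calls exceeded the higher ones by edgeR (445 higher, 864 lower) and DESeq2 (1010 and 1384), as in 5 of 6 fits without 1 library. Without 1 library, Fzd2 ranged from -0.088 to 0.073, above 0 only without siNC replicate 2, and Axin2 from -0.012 to 0.12, below 0 only without siMettl3 replicate 3. Wls was -0.046, -0.050, -0.047 and -0.050 and Ctnnb1 -0.027, -0.030, -0.026 and -0.031 with median-ratio scaling, by edgeR, by DESeq2 and with TMM scaling. The labels number the libraries alike in both groups without pairing them, and deviations of same-numbered libraries correlated at 0.035, -0.25 and -0.12 over 13105 genes; 1 of 6 libraries correlated best with its own number. With the replicate number as a block, 0 members and 0 other pathway genes were called in either direction, of 6 genes in all (1 higher, 5 lower), and Wnt5a was no longer called (adjusted p = 0.129); in this balanced design the block cannot move a fold change. On simulated data, where 12905 of 13105 genes were unchanged, limma called 5 of 100 differences of 0.5 on the log2 scale. The deposited data gave 1432 calls, which makes the adjusted threshold less strict. Smaller differences passed there, such as 0.27 for Csnk1a1. The simulated rate therefore does not say how often such differences are called in these data. A missed threshold still does not show equal levels. The cause of these shifts was not tested.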
